A study of Mus musculus with 23 samples.

Results

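Signalling by bone morphogenetic proteins (BMPs) and by the related activins and transforming growth factor beta (TGF-beta) was followed here through 37 named mouse genes: 9 BMP and GDF ligands, 5 activin and TGF-beta ligands, 6 receptors, 8 secreted or membrane modulators, 2 inhibitory Smads and 7 target genes. The genes were taken by name, each found through the RefSeq accession of its array probes. All 37 had a probe, and 36 of them were among the 16324 genes that passed the filter on dim probes. Bambi, a decoy receptor, was not well above background on any array. The samples were lacrimal gland (LG), harderian gland (HG) and eyelid, the last with its conjunctiva, of B6/CL mice. Whole adult LG (2 arrays) and whole adult HG (3 arrays) were taken at 7 weeks, and LG, HG and eyelid at embryonic day 16.5 (E16.5) were each separated into their epithelial and mesenchymal parts (3 arrays for each of these 6 groups, 23 in all). The LG secretes watery tear fluid, and the HG, a gland of the rodent orbit, secretes lipid.

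BMP ligands bind pairs of type I and type II receptors, which phosphorylate Smad proteins that enter the nucleus and switch on targets such as the Id and Msx genes. Activins and TGF-beta use other receptors of the same family and another set of Smads. Secreted antagonists such as noggin, gremlin, chordin and follistatin hold ligands away from their receptors, and Smad6 and Smad7 are induced by the pathway and dampen it. In mouse glands that branch, BMPs pass between mesenchyme and epithelium, and Bmp7 is known to be needed for normal growth of the lacrimal bud.

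The Id genes are widely used as direct readouts of BMP signalling, and 3 Id promoters are shown because their genes differed among the epithelia in different directions. The 250 bases before each start were taken from RefSeq (GRCm38.p6), at chr12:25096093-25096342 on the minus strand for Id2, chr4:136143572-136143821 on the plus strand for Id3 and chr13:48260866-48261115 on the plus strand for Id4. Capitals mark GGCGCC, a GC-rich sequence that BMP Smads are known to bind, and CAGAC or its reverse complement GTCTG, a general Smad-binding sequence. Both strands were searched, and no match overlapped another.
Id2: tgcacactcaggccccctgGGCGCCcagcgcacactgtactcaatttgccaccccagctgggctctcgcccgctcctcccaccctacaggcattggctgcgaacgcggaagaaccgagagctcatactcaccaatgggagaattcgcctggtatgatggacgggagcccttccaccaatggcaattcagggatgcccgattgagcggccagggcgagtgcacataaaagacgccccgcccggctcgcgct
Id3: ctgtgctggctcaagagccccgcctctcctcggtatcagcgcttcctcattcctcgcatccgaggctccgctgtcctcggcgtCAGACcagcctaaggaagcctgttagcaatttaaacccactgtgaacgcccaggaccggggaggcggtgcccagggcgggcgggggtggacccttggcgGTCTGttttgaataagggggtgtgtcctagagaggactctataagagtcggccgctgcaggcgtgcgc
Id4: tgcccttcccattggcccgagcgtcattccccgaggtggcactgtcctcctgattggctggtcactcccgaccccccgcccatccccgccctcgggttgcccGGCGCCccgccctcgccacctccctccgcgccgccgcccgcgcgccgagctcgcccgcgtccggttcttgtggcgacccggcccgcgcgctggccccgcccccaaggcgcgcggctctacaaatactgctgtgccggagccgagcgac
Id2 and Id4 each held 1 GGCGCC and no CAGAC or GTCTG, whereas Id3 held no GGCGCC and 2 copies of CAGAC or GTCTG. Of 32851 promoter windows in the same table, 9.59% held GGCGCC, 42.2% held CAGAC or GTCTG, and 11.7% held 2 or more copies of CAGAC or GTCTG. Promoter windows were matched for 25 of the 37 genes, and none was found for Id1.

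Levels are log2 signal minus the log2 of the array's 75th percentile, so that 0 is the 75th percentile, and differences are log2 differences between group means with their SE. Levels of different probes cannot be set against each other. The 75th percentile was 139 and 194 intensity units on the adult LG arrays, against 313 to 857 elsewhere. The labels do not say whether arrays came from separate animals or litters, so the spread behind each p-value is that between arrays and may be technical. Epithelial markers fitted the labels: 15 of 15 were called higher in epithelium than in mesenchyme in each of the 3 tissues. The summed level of 15 mesenchymal markers (each gene's signal over the array's 75th percentile, added up) was 144 to 192 in LG epithelium, 180 to 318 in HG epithelium and 205 to 292 in eyelid epithelium, against 1680 to 2470 in the 3 mesenchymes. That of the 15 epithelial markers was 989 to 1130 in eyelid epithelium and 91.2 to 220 in eyelid mesenchyme, against 24.0 or less in the gland mesenchymes. Their median layer difference was 3.58 in the eyelid, 5.115 in LG and 5.08 in HG. The part of this epithelial RNA in the eyelid layer differences was not tested. Eyelid mesenchyme also held skeletal muscle RNA, with a summed level of 76.7 to 146 over 13 markers, against 8.35 or less in the other embryonic groups. The summed level of 10 cartilage and bone markers was 93.2 to 124 in LG epithelium and 48.5 to 75.9 in HG epithelium, against 18.4 or less in the other groups. Their median level was nevertheless low, at -3.09 in LG epithelium and -3.53 in HG epithelium, against -1.64 in eyelid mesenchyme. In LG, 5 of the 10 were called higher and 2 lower in epithelium than in mesenchyme, and in HG 3 higher and 2 lower. In adult HG, replicate 1 stood apart: its summed levels were 65.8 for muscle markers (6.19 and 1.61 in replicates 2 and 3), 216 for 11 immune markers (72.2 and 36.7), 103 for 14 endothelial markers (54.4 and 42.5) and 655 for mesenchymal markers (391 and 319). Adult HG differences named here, other than bounds, that moved by over 1.5-fold or changed call without that array are therefore also given without it. In whole tissue and in separated layers alike, fewer cells of a type and less RNA per cell cannot be told apart.

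**Figure D1:**
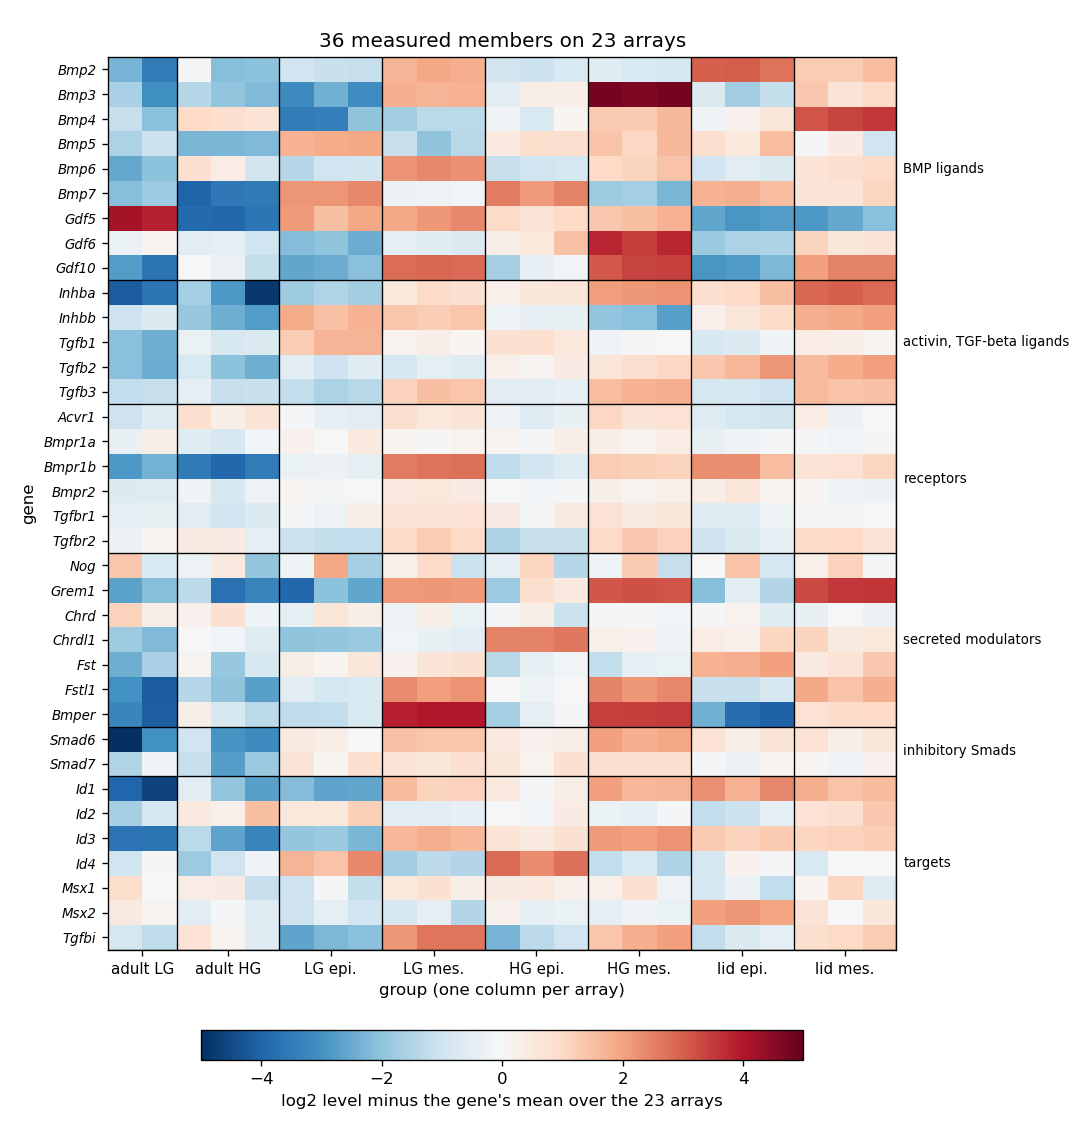
Level of the 36 measured genes on each of the 23 arrays, as log2 signal minus the gene's mean over all arrays (colour), with genes in rows by role and arrays in columns by group. Gdf5 in adult LG, Bmp3 in HG mesenchyme and Bmper in both gland mesenchymes are among the dark red blocks, and most rows are blue in the adult glands.

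The first question was which layer of each tissue carried which signal at E16.5. Most members were lower in epithelium. Over the mean of the 3 tissues 6 of 36 rose and 21 fell in epithelium relative to mesenchyme at an adjusted p below 0.05 (limma), in a fit that called 70.6% of all genes, 38.7% of them higher and 32.0% lower. The median log2 difference was -0.61 over the 36 members and 0.09 over all genes. By tissue, 5 rose and 22 fell in LG (58.6% of all genes called, 32.1% higher and 26.5% lower), 5 rose and 18 fell in HG (57.9% called, 29.8% higher and 28.1% lower), and 7 rose and 17 fell in the eyelid (51.2% called, 25.7% higher and 25.5% lower). Endothelial and immune markers moved with the mesenchyme too: 13 of 14 endothelial and 9 of 11 immune markers were called lower in epithelium in each tissue, and their part in the members' differences was not tested.

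Bmp7 was higher in epithelium in all 3 tissues. It stood at 5.06, 5.08 and 5.25 in LG epithelium, against 2.56, 2.61 and 2.70 in LG mesenchyme. In HG epithelium it stood at 5.46, 4.98 and 5.35, against 1.09, 1.15 and 0.59 in HG mesenchyme. In eyelid epithelium it stood at 4.59, 4.65 and 4.41, against 3.48, 3.52 and 3.92 in eyelid mesenchyme. Every epithelial array was above every mesenchymal array of its tissue, and the 2 HG layers lay farthest apart. The differences were 2.50 ± 0.18 in LG (SE, adjusted p = 1.39e-09, limma), 4.32 ± 0.18 in HG (adjusted p = 1.55e-11) and 0.91 ± 0.18 in the eyelid (adjusted p = 0.000317), and they depended on the tissue (limma F test, adjusted p = 3.22e-08).

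Bmp3, a divergent ligand that opposes other BMPs in bone, and Gdf10, its closest relative, were mesenchymal. Bmp3 stood at -1.78, -0.94 and -0.93 in HG epithelium, against 3.51, 3.43 and 3.52 in HG mesenchyme. The layers were thus well apart on each slide, and Bmp3 fell in epithelium by 4.63 ± 0.34 in LG, 4.70 ± 0.34 in HG and 2.22 ± 0.34 in the eyelid (SE, limma adjusted p = 1.88e-09, 2.59e-09 and 2.21e-05). Gdf10 fell by 5.20 ± 0.35 in LG, 4.01 ± 0.35 in HG and 5.0 ± 0.35 in the eyelid. Bmp4, a mesenchymal signal in many branching organs, and Bmp6 fell in each tissue as well, Bmp4 by 1.5, 1.68 and 3.14 and Bmp6 by 3.42, 2.19 and 1.57 in LG, HG and eyelid. A second Bmp4 probe was below background on all 23 arrays (-7.35 to -4.72), so all Bmp4 values come from 1 probe.

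Bmp2 was called in opposite directions in LG and in the eyelid. It stood at -1.54, -1.68 and -1.72 in LG epithelium, against 1.11, 1.36 and 1.24 in LG mesenchyme, whereas in the eyelid it stood at 2.41, 2.44 and 2.12 in epithelium, against 0.68, 0.67 and 0.95 in mesenchyme. It was thus lower in LG epithelium and higher in eyelid epithelium with no overlap, by -2.88 ± 0.38 and 1.56 ± 0.38 (SE, limma adjusted p = 3.03e-06 and 0.00209). In HG the Bmp2 difference was -0.18 (adjusted p = 0.718). Bmp5 was at least 8.12-fold higher in LG epithelium, since LG mesenchyme was not well above background, and rose by 1.21 ± 0.31 in eyelid epithelium, but in HG its difference was -0.63 (adjusted p = 0.0863). Such bounds compare the brighter group with the lowest signal that counts as well above background on the dim arrays. Gdf6 fell by 2.90 ± 0.25 in HG epithelium and was at least 1.5-fold lower in eyelid epithelium, and in LG both layers were below background. Gdf5, best known from joints, fell by 0.67 ± 0.21 in HG epithelium (adjusted p = 0.00923) and differed by -0.30 in LG and -0.25 in the eyelid (adjusted p = 0.236 and 0.339). That call was lost when both Gdf5 probes were averaged (-0.40), with scaling to the median (-0.62) and without replicate 2 of every group (-0.59), and the second Gdf5 probe gave 0.06, -0.13 and 1.04 in LG, HG and eyelid.

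**Figure D2:**
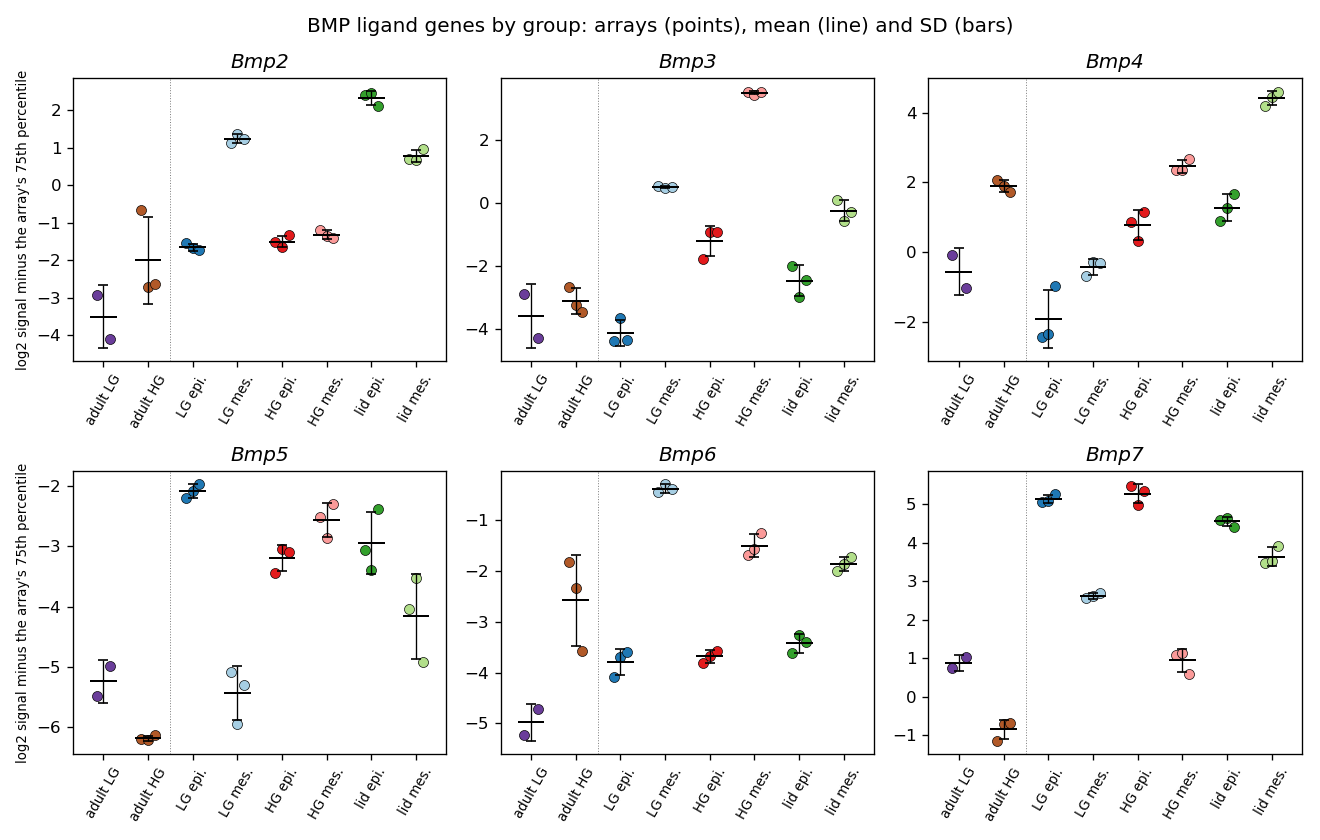
Levels of 6 BMP ligand genes (y axis, log2 signal minus the array's 75th percentile) by group (x axis), with arrays as points, group means as lines and SD as bars; the adult groups stand left of the dotted line. Bmp7 is above 4 in all 3 epithelia and near or below 1 in the adult glands, and Bmp3 is highest in HG mesenchyme.

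Among activin and TGF-beta ligands, Inhba (the activin A subunit) and Tgfb3 were mesenchymal in all 3 tissues, and Inhbb (the activin B subunit) and Tgfb1 depended on the tissue. Tgfb3 fell in epithelium by 2.74 ± 0.16, 2.20 ± 0.16 and 2.42 ± 0.16 in LG, HG and eyelid (SE, limma adjusted p = 1.64e-10, 2.79e-09 and 9.45e-10). Inhba fell by 2.43, 1.69 and 1.78. Inhbb stood at -0.10, -0.28 and -0.24 in HG epithelium, against -1.85, -1.97 and -2.58 in HG mesenchyme. It stood at 0.39, 0.71 and 1.09 in eyelid epithelium, against 1.95, 2.01 and 2.17 in eyelid mesenchyme. The order of the layers was therefore opposite in the 2 tissues, with differences of 1.93 ± 0.23 in HG (adjusted p = 7.59e-07) and -1.31 ± 0.23 in the eyelid (adjusted p = 7.79e-05). In LG both layers were high and differed by 0.37 (adjusted p = 0.169). Tgfb1 rose in LG epithelium by 1.35 ± 0.17 and in HG epithelium by 0.74 ± 0.17 and fell in eyelid epithelium by 0.85 ± 0.17. Tgfb2 was not called in any tissue (-0.07, -0.57 and -0.10 in LG, HG and eyelid, the lowest adjusted p being 0.134).

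Of the receptors, Bmpr1b, a type I BMP receptor, depended most on the tissue (F test, adjusted p = 7.86e-09). It stood at -2.66, -2.60 and -2.82 in LG epithelium, against 0.27, 0.39 and 0.42 in LG mesenchyme. In eyelid epithelium it stood at 0.01, -0.01 and -0.79, against -1.62, -1.59 and -1.24 in eyelid mesenchyme. Gland epithelium was the low layer and eyelid epithelium the high one: the difference was -3.05 ± 0.21 in LG, -2.16 ± 0.21 in HG and 1.22 ± 0.21 in the eyelid (SE, limma adjusted p = 8.48e-10, 8.00e-08 and 8.10e-05), and the second Bmpr1b probe gave -2.97, -2.73 and 1.57. Acvr1, another type I receptor, fell in epithelium in each tissue (1.01, 1.2 and 0.82), as did Tgfbr2, the TGF-beta type II receptor (2.24, 2.43 and 1.59). Tgfbr1, its type I partner, fell by 0.68 in LG and 0.49 in the eyelid and differed by -0.34 in HG (adjusted p = 0.0886, or 0.0341 with the replicate block, which pairs arrays of the same number). Bmpr2, a type II BMP receptor, fell by 0.46 in LG epithelium and rose by 0.49 in eyelid epithelium (adjusted p = 0.0212 and 0.0173, limma), and differed by -0.31 in HG (adjusted p = 0.114); its tissue dependence was called (F test, adjusted p = 0.00516). Bmpr1a was not called in any (0.13, -0.17 and -0.15 in LG, HG and eyelid).

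Among the secreted modulators, Bmper, Grem1 and Fstl1 were mesenchymal in all 3 tissues. Bmper, which binds BMPs and tunes their activity, stood at -1.04, -1.0 and -0.52 in LG epithelium, against 4.12, 4.26 and 4.24 in LG mesenchyme, and fell by 5.05 ± 0.44, 4.18 ± 0.44 and 4.29 ± 0.44 in LG, HG and eyelid epithelium (SE, limma adjusted p = 1.74e-08, 2.28e-07 and 1.89e-07). Grem1, an antagonist of BMPs, was not well above background in LG epithelium and at least 21.7-fold lower there than in LG mesenchyme, and fell by 3.32 ± 0.64 in HG and 4.84 ± 0.64 in eyelid epithelium. Fstl1, a secreted relative of follistatin, fell by 2.95, 2.42 and 2.71. Chrdl1, a chordin-like antagonist, turned with the tissue: it stood at -0.08, -0.05 and 0.08 in HG epithelium, against -2.29, -2.34 and -2.75 in HG mesenchyme, but at -4.55, -4.49 and -4.42 in LG epithelium, against -2.70, -2.93 and -3.07 in LG mesenchyme. In HG the epithelium was the high layer and in LG the low one, by 2.44 ± 0.22 and -1.59 ± 0.22 (adjusted p = 3.46e-08 and 6.15e-06), and the other 2 Chrdl1 probes gave 1.85 and 2.27 in HG but were not well above background in LG epithelium. Fst, which binds activin, rose by 1.05 ± 0.42 in eyelid epithelium (adjusted p = 0.0426) and differed by -0.20 in LG and 0.00 in HG. The eyelid call ended without any eyelid array but mesenchyme replicate 3 (0.86 to 1.11), and also without LG epithelium replicate 1 or LG mesenchyme replicate 2 (1.05 each). Nog and Chrd, noggin and chordin, were called in no comparison at all. Nog moved with the slide instead: in every embryonic group its level was highest on slide 2 (-1.44 to -0.46) and lowest on slide 3 (-4.06 to -2.47). The target Msx1 had the same order in every embryonic group, at -2.20 to -0.84 on slide 2 and -3.15 to -1.63 on slide 3.

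Of the 7 targets, Id1, Id2, Id3, Id4, Msx2 and Tgfbi had a layer difference that depended on the tissue, whereas the tissue dependence was not called for Msx1, Smad6 or Smad7 (F test, adjusted p = 0.179, 0.11 and 0.955). Id3 stood at 1.0, 1.04 and 0.63 in LG epithelium, against 4.57, 4.75 and 4.57 in LG mesenchyme. In HG epithelium it stood at 3.59, 3.39 and 3.70, against 5.03, 4.96 and 5.15 in HG mesenchyme. In the eyelid the layers were close, at 4.24, 4.06 and 4.24 in epithelium, against 4.0, 4.06 and 4.15 in mesenchyme. Id3 therefore fell by 3.74 ± 0.30 in LG epithelium and by 1.49 ± 0.30 in HG epithelium, and the eyelid difference was 0.11 ± 0.30 (SE, limma adjusted p = 5.60e-09, 0.000324 and 0.784). Id1 followed it, with -3.76 ± 0.38, -1.56 ± 0.38 and 0.55 ± 0.38. The tissue mattered for both genes (F test, adjusted p = 3.67e-06 for Id3 and 1.40e-05 for Id1).

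Id4 ran the other way in both glands, and Id2 in LG. Id4 stood at 2.76, 2.47 and 3.43 in LG epithelium, against -0.70, -0.28 and -0.42 in LG mesenchyme. In HG epithelium it stood at 3.89, 3.39 and 3.80, against -0.20, 0.29 and -0.51 in HG mesenchyme. Both gland epithelia were thus far above their mesenchyme, by 3.35 ± 0.39 in LG and 3.83 ± 0.39 in HG, while the eyelid layers differed by 0.01 ± 0.39 (SE, limma adjusted p = 7.21e-07, 1.55e-07 and 0.986). Id2 rose by 1.24 ± 0.31 in LG epithelium, fell by 1.87 ± 0.31 in eyelid epithelium and differed by 0.38 in HG (adjusted p = 0.315). Smad6 fell by 1.14 ± 0.44 in LG and 1.59 ± 0.44 in HG epithelium, the LG call being lost without any 1 of the 6 LG arrays (-1.23 to -1.02), and differed by 0.00 in the eyelid; Smad7 was called in none. Msx2 rose by 1.67 ± 0.25 in eyelid epithelium and differed by 0.08 in LG and 0.13 in HG, and the dependence on tissue was itself called (F test, adjusted p = 0.00181). Msx1 fell by 1.31 ± 0.45 in LG epithelium (adjusted p = 0.0193), a call lost without LG epithelium replicate 1 (-1.18) or 3 (-1.10) or LG mesenchyme replicate 2 (-1.19), and in the eyelid it differed by -0.97 (adjusted p = 0.0854, or 0.0151 with the replicate block). Tgfbi, a matrix protein induced by TGF-beta, fell by 4.83, 3.27 and 1.82 in LG, HG and eyelid epithelium.

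**Figure D3:**
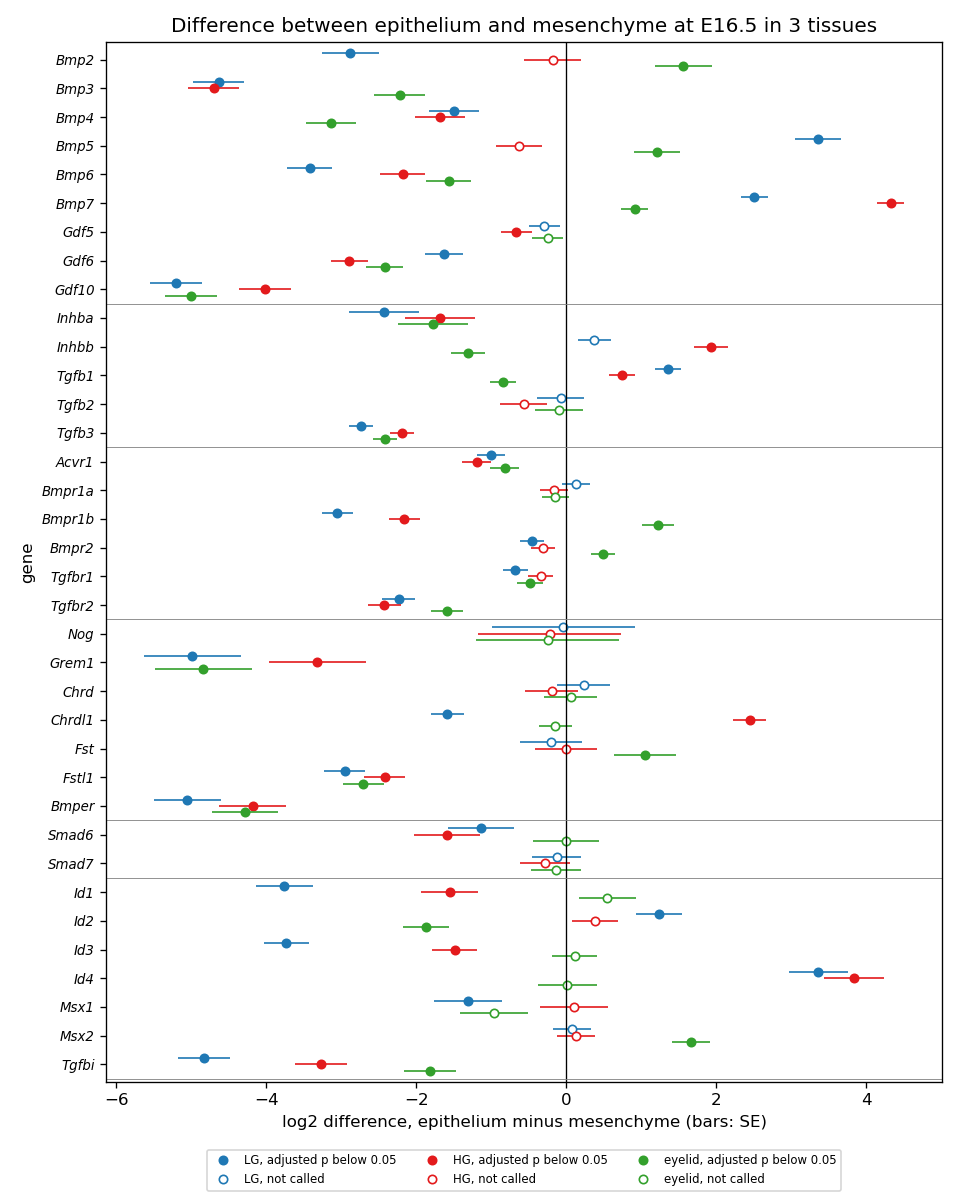
Log2 difference, epithelium minus mesenchyme (x axis, bars SE), for the 36 genes (y axis) in LG, HG and eyelid; filled points are called at an adjusted p below 0.05. Points are fitted values also where a layer was below background (Bmp5, Gdf6 and Grem1 in LG, Gdf6 in the eyelid). Bmp7 is right of 0 in all 3 tissues, and Bmpr1b, Bmp2, Inhbb and Chrdl1 lie on both sides of 0 with the tissue.

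The tissue dependence of the layer difference was called for 18 of the 36 members, beside 42.3% of all genes. Under up to 36 other settings (other scalings, filters and probes, blocks, and arrays left out) the layer calls held for 22 of 27 members in LG, 20 of 23 in HG and 18 of 24 in the eyelid; those lost under at least 1 setting were Bmpr2, Gdf6, Msx1, Smad6 and Tgfbr1 in LG, Gdf5, Inhba and Smad6 in HG, and Bmp5, Bmpr2, Fst, Gdf6, Inhba and Tgfbr1 in the eyelid. Bmpr2 in LG (-0.46) was lost without LG epithelium replicate 2 or LG mesenchyme replicate 1 or 2 (-0.45 to -0.42), Bmpr2 in the eyelid (0.49) without eyelid epithelium replicate 2 or eyelid mesenchyme replicate 2 or 3 (0.35 to 0.43), and Tgfbr1 in the eyelid without eyelid epithelium replicate 1 or 2 or eyelid mesenchyme replicate 1 (-0.46 to -0.41). Of 56 other measured pathway genes, 14 rose and 19 fell in LG epithelium, 11 rose and 23 fell in HG and 14 rose and 22 fell in the eyelid. Bmp8b, another BMP ligand, and the activin receptors Acvr1b and Acvr2b had the highest differences over the mean of the 3 tissues (2.58, 2.13 and 2.06). Kcp, a BMP-binding protein, was among the lowest (-4.12), and Chrdl2, a chordin-like protein, was at least 6.21-fold lower.

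The next question was how the 2 gland epithelia differed at the same stage. LG epithelium had less RNA for several BMP ligands, for the antagonist Chrdl1 and for the targets Id1 and Id3 than HG epithelium, and more for Inhbb. Of 36 members 4 rose and 10 fell in LG epithelium, while 6.35% of all genes were called, 2.96% higher and 3.39% lower. The median difference was -0.21 over the members and 0.01 over all genes. With arrays scaled to their median, 1 rose and 9 fell.

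Bmp4 stood at -2.42, -2.35 and -0.96 in LG epithelium, against 0.87, 0.32 and 1.16 in HG epithelium. Bmp3 stood at -4.39, -3.67 and -4.38 in LG epithelium, against -1.78, -0.94 and -0.93 in HG epithelium. No LG array reached the HG range for either ligand, and the differences were -2.69 ± 0.33 for Bmp4 and -2.93 ± 0.34 for Bmp3 (SE, limma adjusted p = 2.60e-05 and 1.36e-05). Gdf6 was at least 2.14-fold lower and Grem1 at least 4.37-fold lower in LG epithelium, where neither was well above background. Gdf6 was dim in HG epithelium too (-4.50, -4.28 and -3.35), well above background on 1 of the 3 arrays. The Grem1 call ended without HG epithelium replicate 2 or 3 or LG epithelium replicate 1 (-2.34 to -2.13). Gdf10 fell by 1.64 ± 0.35, Inhba by 2.15 ± 0.47 and Tgfb3 by 0.90 ± 0.16. Inhbb stood at 2.0, 1.60 and 1.88 in LG epithelium, against -0.10, -0.28 and -0.24 in HG epithelium, and rose by 2.03 ± 0.23 (adjusted p = 7.49e-06). Bmp5, Gdf5 and Tgfb1 rose by 1.11, 0.99 and 0.85; the Bmp5 call ended without any 1 of the 6 gland epithelium arrays (0.99 to 1.19), and all 3 calls were lost with scaling to the median. The second Gdf5 probe gave 0.71, not called (adjusted p = 0.622, limma).

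Chrdl1 showed the widest gap between the gland epithelia: the LG and HG arrays given above were separated by -4.47 ± 0.22 (adjusted p = 6.82e-10, limma); the other 2 Chrdl1 probes were not well above background in LG epithelium. Among the targets, Id1 stood at 0.20, -0.29 and -0.22 in LG epithelium, against 2.86, 2.29 and 2.67 in HG epithelium, and fell by 2.71 ± 0.38 (adjusted p = 8.70e-05). Id3 fell by 2.67 ± 0.30 (adjusted p = 8.99e-06). Each LG array was below each HG array for both genes. Id4 and Id2 were not called (-0.81 and 0.64, adjusted p = 0.357 and 0.352), nor were Smad6 and Smad7 (-0.06 and 0.01). Of the 3 promoters printed above, only that of Id3 therefore belongs to a gene called between the gland epithelia. Msx1 differed by -1.18 (adjusted p = 0.177, or 0.0294 with the replicate block).

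The mesenchymal marker sum was higher in HG epithelium than in LG epithelium on all 3 slides. It was 168, 144 and 192 in LG epithelium, against 180, 258 and 318 in HG epithelium, and 5 of 15 markers were called lower in LG epithelium and none higher. Within slides 1, 2 and 3 the LG minus HG difference was -4.47, -4.44 and -4.50 for Chrdl1, -3.29, -2.67 and -2.12 for Bmp4, and -2.61, -2.73 and -3.44 for Bmp3. It was -2.66, -2.58 and -2.89 for Id1, -2.59, -2.34 and -3.06 for Id3, and -0.93, -2.06 and -1.93 for Gdf10. The part of mesenchymal RNA in these differences was not tested. Of the 14 calls 7 held under all other settings (Bmp3, Bmp4, Chrdl1, Gdf6, Id1, Id3 and Inhbb). Of 56 other pathway genes 3 rose and 4 fell, among them the latent TGF-beta binding protein Ltbp2 (-2.22), the Nodal antagonist Lefty1 (1.14) and the receptor Acvr2a (0.73); for Smad9 both epithelia were below background.

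**Figure D4:**
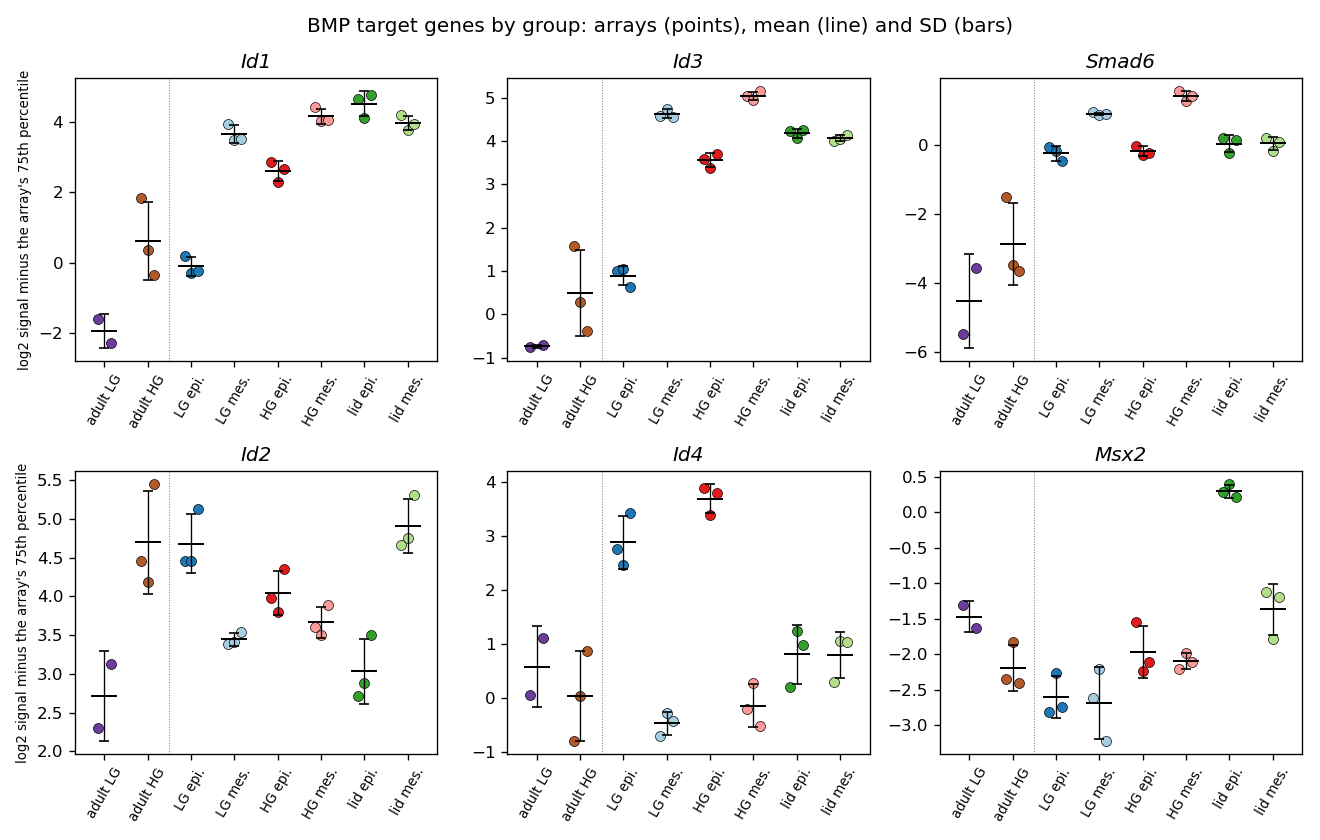
Levels of the targets Id1, Id3, Smad6, Id2, Id4 and Msx2 (y axis, log2 signal minus the array's 75th percentile) by group (x axis), with arrays as points, means as lines and SD as bars. Id1 and Id3 are lower in LG epithelium than in the 5 other embryonic groups, Id4 is high in the 2 gland epithelia and Msx2 in eyelid epithelium.

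Both gland epithelia were then set against eyelid epithelium, the surface layer from whose conjunctival side the glands bud. Gland epithelia had more Gdf5 and Id4 and less Bmp2, Bmpr1b and Msx2. In LG epithelium 9 members rose and 13 fell relative to eyelid epithelium (45.5% of all genes called, 27.2% higher and 18.3% lower), and in HG epithelium 14 rose and 9 fell (44.6% called, 26.6% higher and 18.0% lower). Both comparisons use the same 3 eyelid arrays. Relative to eyelid epithelium 4 of 15 mesenchymal markers were called higher and 3 lower in LG epithelium, and 7 higher and 2 lower in HG epithelium. Of 14 endothelial markers 6 were called higher in LG epithelium and 11 in HG epithelium, and none lower. The part of these markers in the members' differences was not tested.

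Gdf5 stood at 2.59, 1.96 and 2.36 in LG epithelium and at 1.39, 1.14 and 1.43 in HG epithelium, against -2.15, -2.44 and -2.35 in eyelid epithelium. Every gland array was above every eyelid array, by 4.62 ± 0.21 in LG and 3.63 ± 0.21 in HG (SE, limma adjusted p = 4.27e-12 and 1.20e-10), and the second Gdf5 probe gave 2.66 and 1.95. Id4 rose by 2.08 ± 0.39 and 2.89 ± 0.39, Bmper by 2.31 ± 0.44 and 2.68 ± 0.44 and Tgfb1 by 2.12 ± 0.17 and 1.27 ± 0.17. Id2 rose by 1.65 in LG and 1.01 in HG, the HG call being lost without HG epithelium replicate 3 or eyelid epithelium replicate 1 (0.85 each). Bmp2 fell by 3.97 ± 0.38 in LG and 3.82 ± 0.38 in HG, Msx2 by 2.90 ± 0.25 and 2.27 ± 0.25 and Bmpr1b by 2.43 ± 0.21 and 3.02 ± 0.21. Tgfb2 fell by 2.49 and 1.48 and Fst by 1.53 and 2.54.

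Several members separated the glands here. Chrdl1 was 2.50 lower than eyelid in LG epithelium and 1.97 higher in HG epithelium, both called. Inhbb was 1.09 higher in LG and 0.94 lower in HG, and Bmp3 was 1.66 lower in LG and 1.26 higher in HG. Bmp4, Id3 and Inhba fell in LG epithelium (-3.19 ± 0.33, -3.29 ± 0.30 and -2.81 ± 0.47), while their HG differences were -0.49, -0.62 and -0.65 (adjusted p = 0.249, 0.102 and 0.281). Id1 fell in both, by 4.63 ± 0.38 in LG and 1.92 ± 0.38 in HG. Gdf10 rose in HG epithelium (1.94 ± 0.35) and Gdf6 was at least 1.5-fold higher there, though well above background on only 1 of the 3 HG arrays. The direct tests between the gland epithelia were given above for these genes.

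The remaining calls ran from 0.41 to 1.52 in size. In LG epithelium Bmp7 (0.58), Bmp5 (0.87) and Tgfbr1 (0.50) rose and Tgfbi (-1.52) and Tgfb3 (-0.47) fell. In HG epithelium Bmp7 (0.72), Tgfbr1 (0.76), Fstl1 (0.94), Msx1 (1.19) and Tgfb3 (0.42) rose and Tgfbr2 (-0.55) and Bmpr2 (-0.41) fell. Single arrays ended several of these calls. In LG, Bmp5 was lost without LG epithelium replicate 2 or 3 or eyelid epithelium replicate 1 or 2 (0.64 to 0.87), Bmp7 without replicate 3 of either (0.52 and 0.51), Tgfb3 without LG epithelium replicate 2 or 3 or eyelid epithelium replicate 1 or 2 (-0.47 to -0.39), and Tgfbr1 without LG epithelium replicate 3 or eyelid epithelium replicate 1 or 2 (0.33 to 0.45). In HG, Tgfb3 was lost without any 1 of the 6 arrays (0.37 to 0.45), Msx1 without any but eyelid epithelium replicate 2 (0.97 to 1.26), Tgfbr2 without any but eyelid epithelium replicate 1 (-0.63 to -0.42) and Bmpr2 without any but eyelid epithelium replicate 3 (-0.45 to -0.28). The last 2 were also lost without most arrays of the other embryonic groups, at -0.55 and -0.41. With the replicate block Acvr1 (0.47, adjusted p = 0.0180) and Bmpr1a (0.44, adjusted p = 0.0238) were also called in LG, and Acvr1 (0.40, adjusted p = 0.0377) in HG. Of 56 other pathway genes 14 rose and 14 fell in LG epithelium and 17 rose and 13 fell in HG epithelium; the stress-responsive ligand Gdf15 led in both (3.58 and 3.74), and Sostdc1, a BMP and Wnt antagonist, fell in both (-3.38 and -2.72).

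The mesenchymes surrounding the buds were compared in the same way. LG mesenchyme had less Bmp3, Bmp4, Bmp5 and Gdf6 and more Bmp2, Bmp7 and Inhbb than HG mesenchyme. Of 36 members 5 rose and 5 fell in LG mesenchyme relative to HG mesenchyme (14.3% of all genes called, 6.46% higher and 7.85% lower). Relative to eyelid mesenchyme, 8 rose and 10 fell in LG (31.2% called, 15.5% higher and 15.7% lower) and 9 rose and 8 fell in HG (22.4% called, 11.1% higher and 11.3% lower). Eyelid mesenchyme was the group with muscle markers, 11 of 13 of which were called lower in LG mesenchyme and 12 in HG mesenchyme. It also held more epithelial RNA: the summed level of the 15 epithelial markers was 8.13 to 17.2 in LG mesenchyme and 5.95 to 24.0 in HG mesenchyme, against 91.2 to 220 in eyelid mesenchyme, and 11 markers were called lower in each gland mesenchyme. The gland mesenchymes differed in 12 pigment and Schwann cell markers, whose summed level was 32.3 to 39.9 in LG, against 104 to 135 in HG. Of these, 7 were called lower in LG mesenchyme and none higher. The part of these marker lists in the members' differences was not tested.

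Bmp3 stood at 0.52, 0.46 and 0.50 in LG mesenchyme, against 3.51, 3.43 and 3.52 in HG mesenchyme. Bmp4 stood at -0.68, -0.27 and -0.30 in LG mesenchyme, against 2.37, 2.35 and 2.66 in HG mesenchyme. Both were lower on every LG array, by -2.99 ± 0.34 and -2.88 ± 0.33 (SE, limma adjusted p = 5.27e-06 and 6.07e-06). Gdf6 was at least 16.3-fold and Bmp5 at least 5.83-fold lower in LG mesenchyme, where neither was well above background. Tgfb2 fell by 1.5 ± 0.31. Inhbb stood at 1.5, 1.35 and 1.5 in LG mesenchyme, against -1.85, -1.97 and -2.58 in HG mesenchyme. Its separation was complete, and it rose by 3.58 ± 0.23 (adjusted p = 4.86e-09). Bmp2 rose by 2.56 ± 0.38, Bmp7 by 1.68 ± 0.18 and Bmpr1b by 1.48 ± 0.21. Bmp6 rose by 1.13 ± 0.30, a call lost without HG mesenchyme replicate 1 (1.03) or LG mesenchyme replicate 2 (1.09). None of the 7 targets was called between the gland mesenchymes. With the replicate block Gdf5 (0.61) and Fst (1.21) were also called (adjusted p = 0.0230 and 0.0419).

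Gdf5 and Bmper were higher in both gland mesenchymes than in eyelid mesenchyme, as they were between the epithelia. Gdf5 stood at 2.33, 2.61 and 2.86 in LG mesenchyme and at 1.8, 1.96 and 2.20 in HG mesenchyme, against -2.43, -2.11 and -1.66 in eyelid mesenchyme. It rose on every array, by 4.67 ± 0.21 in LG and 4.06 ± 0.21 in HG (SE, limma adjusted p = 2.41e-11 and 1.40e-10). Bmper rose by 3.07 and 2.58. Bmp4 fell by 4.83 ± 0.33 in LG and 1.95 ± 0.33 in HG. Bmp3 rose in HG (3.74 ± 0.34) and differed by 0.75 in LG (adjusted p = 0.106), and Gdf6 rose by 2.90 in HG and was at least 2.19-fold lower in LG. Inhbb fell by 4.17 ± 0.23 in HG, against a difference of -0.59 in LG (adjusted p = 0.0542).

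Bmp7 fell in both gland mesenchymes (1.01 in LG and 2.70 in HG relative to eyelid), as did Id2 (1.46 and 1.24) and Tgfb2 (2.51 and 1.02). Acvr1 (0.65 and 0.78) and Tgfbr1 (0.69 and 0.62) rose in both. In LG Bmpr1b (1.84), Bmp6 (1.48), Tgfbi (1.49) and Bmpr2 (0.62) rose, Inhba (-2.16), Id4 (-1.26) and Chrdl1 (-1.06) fell, and Bmp5 was at least 1.93-fold lower. In HG Bmp2 (-2.09) and Fst (-1.49) fell and Bmp5 (1.60), Smad6 (1.37) and Id3 (0.98) rose. Msx2 fell by 1.32 in LG and 0.73 in HG.

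Of the calls against eyelid mesenchyme, 9 of the 17 HG calls and 8 of the 18 LG calls held under all other settings. Without HG mesenchyme replicate 1 the HG count was 11, and it lost Fst (-1.21), Id3 (0.98), Msx2 (-0.68), Smad6 (1.30), Tgfb2 (-0.90) and Tgfbr1 (0.55); Fst was also lost without eyelid mesenchyme replicate 3 (-1.23), Tgfb2 without HG replicate 2 or eyelid mesenchyme replicate 2 or 3 (-1.02 to -0.89), Id3 without any other of the 6 arrays but HG replicate 2 (0.93 to 1.02), Smad6 without any (1.27 to 1.46), and Msx2 without any but eyelid mesenchyme replicate 2 (-0.79 to -0.61) and without LG mesenchyme replicate 1, HG epithelium replicate 3, LG epithelium replicate 1 or 3 or any eyelid epithelium array (-0.73). In LG Acvr1 was lost without LG mesenchyme replicate 1 (0.57) or eyelid mesenchyme replicate 2 (0.50), and Id4 without LG mesenchyme replicate 1 or eyelid mesenchyme replicate 2 or 3 (-1.15 to -1.13). With the replicate block Chrdl1 (-0.62), Fstl1 (0.65) and Id4 (-0.94) were also called in HG (adjusted p = 0.0443, 0.0463 and 0.0492). Of 56 other pathway genes 2 rose and 8 fell in LG relative to HG mesenchyme, with Sostdc1 (1.82) and the co-receptor Tgfbr3 (0.82) higher and Ltbp2 (-2.69), Ccn2 (-2.60), a matricellular TGF-beta target, and Ltbp1 (-1.98) lowest. Relative to eyelid mesenchyme 8 rose and 13 fell in LG and 7 rose and 8 fell in HG; Mstn, the muscle ligand myostatin, was at least 3.62-fold lower in LG and at least 2.54-fold lower in HG.

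**Figure D5:**
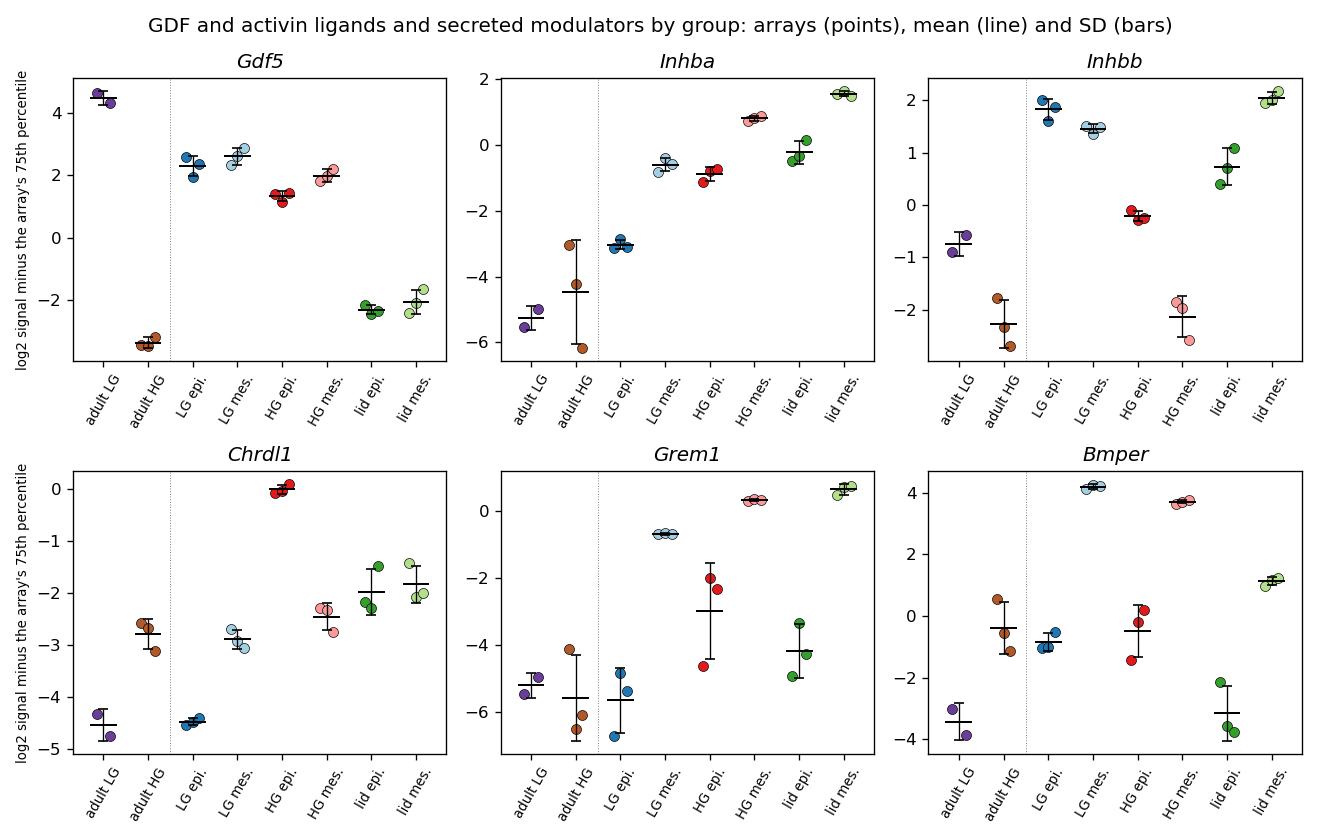
Levels of Gdf5, the activin subunit genes Inhba and Inhbb, and the modulators Chrdl1, Grem1 and Bmper (y axis, log2 signal minus the array's 75th percentile) by group (x axis), with arrays as points, means as lines and SD as bars. Gdf5 is above 1 in both embryonic glands, below -1 in the eyelid, above 4 in adult LG and below -3 in adult HG.

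At 7 weeks the whole glands were compared with each other. The widest member difference was Gdf5: it stood at 4.63 and 4.32 in adult LG, against -3.44, -3.49 and -3.18 in adult HG. No values of the 2 glands came near each other, and the difference was 7.84 ± 0.23 (SE, limma adjusted p = 8.87e-15). The second Gdf5 probe gave 0.42 and 0.23 in adult LG, against -3.67, -2.79 and -5.16 in adult HG (difference 4.20). Of 36 members 7 rose and 15 fell in adult LG relative to adult HG, beside 55.6% of all genes called, 22.4% higher and 33.2% lower. With arrays scaled to their median the counts were 3 and 15, with normexp background correction 10 and 10, and without adult HG replicate 1 they were 6 and 13. Where 1 of the 2 adult LG arrays is left out, the lone array is assumed to vary like those of the other groups.

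Bmp7 stood at 0.74 and 1.02 in adult LG, against -1.14, -0.71 and -0.69 in adult HG, and Inhbb at -0.90 and -0.57 in adult LG, against -1.78, -2.33 and -2.69 in adult HG. Both were higher on each adult LG array, by 1.73 ± 0.20 and 1.53 ± 0.25 (SE, limma adjusted p = 8.63e-07 and 5.25e-05). Bmp4 stood at -0.08 and -1.03 in adult LG, against 2.07, 1.90 and 1.74 in adult HG. It fell by 2.46 ± 0.37 (adjusted p = 2.08e-05), and by 2.37 without adult HG replicate 1. Gdf10 fell by 2.71 ± 0.39, Tgfb1 by 1.66 ± 0.20 and Acvr1 by 1.45 ± 0.21. Tgfb1 was well above background on 1 of the 2 adult LG arrays, and under normexp its difference was -0.30, not called (adjusted p = 0.116, limma). Bmper was at least 5.69-fold, Bmp6 at least 1.37-fold and Chrdl1 at least 1.18-fold lower in adult LG, where none was well above background; under normexp Bmp6 and Chrdl1 changed sign (0.09 and 0.19). Calls for Bmp5 and Bmpr1b were made between levels below background in both glands.

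Of the targets, Id1 stood at -1.60 and -2.28 in adult LG, against 1.83, 0.38 and -0.34 in adult HG. Id2 stood at 2.31 and 3.13 in adult LG, against 4.46, 4.19 and 5.45 in adult HG. For both genes every adult LG array was below every adult HG array, by -2.56 ± 0.42 for Id1 and -1.98 ± 0.34 for Id2 (SE, limma adjusted p = 4.94e-05 and 9.63e-05). Without adult HG replicate 1 the Id1 difference was -1.95. Id3 fell by 1.23 ± 0.34 and by 0.69 without adult HG replicate 1. Smad6 was at least 1.12-fold lower in adult LG, with overlapping arrays; the difference was -1.64 and became -0.68, not called, without adult LG replicate 1, -2.60 without adult LG replicate 2 and -0.96 without adult HG replicate 1. Smad7 rose by 1.06, a call lost without adult HG replicate 2 (0.65) or adult LG replicate 2 (0.42), and it was 1.69 without adult LG replicate 1.

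Bmp2 fell by 1.5, and by 0.82 without adult HG replicate 1, and was not called without adult LG replicate 2 (-0.91). It was well above background on 1 of the 2 adult LG arrays, and under normexp the difference was -0.04, not called (adjusted p = 0.891, limma). Fstl1 fell by 1.55, and by 0.99 without adult LG replicate 2. Tgfbi (-1.11), Fst (-1.18) and Msx2 (0.72) lost their calls without adult HG replicate 1 (-0.78, -0.69 and 0.65); Tgfbi also without adult LG replicate 2 (-0.90), Fst also without adult HG replicate 3 (-1.16) or adult LG replicate 1 (-0.77), and Msx2 also without any other adult array except adult HG replicate 2 (0.57 to 0.88). Adult HG also had more mesenchymal and endothelial RNA: 12 of 15 mesenchymal markers (summed level 152 to 171 in adult LG, against 319 to 655 in adult HG) and 11 of 14 endothelial markers (27.7 to 43.9 in adult LG, against 42.5 to 103 in adult HG) were called lower in adult LG. Pigment and Schwann cell markers differed as well (8.56 to 9.99 in adult LG, against 89.3 to 97.0 in adult HG, over 12 genes), and Twist1, Twist2 and Cdh11 were not well above background in adult LG. Their part in the members' differences was not tested. Of 56 other pathway genes 15 rose and 22 fell, with the inhibin subunit gene Inha (5.24) and the ligands Gdf15 (4.91) and Gdf7 (4.55) highest and Ltbp2 (-5.64) and Kcp (-3.87) lowest; the receptor gene Amhr2 was at least 6.89-fold lower.

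Last, each whole adult gland was set against its own embryonic layers. Most members that changed were lower in the adult. Relative to LG epithelium 7 rose and 19 fell in adult LG (69.8% of all genes called, 31.2% higher and 38.7% lower), and relative to LG mesenchyme 3 rose and 25 fell (70.4% called, 32.6% higher and 37.8% lower). In adult HG 5 rose and 21 fell relative to HG epithelium (70.0% called, 34.4% higher and 35.6% lower), and 1 rose and 24 fell relative to HG mesenchyme (68.7% called, 32.9% higher and 35.8% lower). Each pair of comparisons shares its adult arrays. The 7 that rose over LG epithelium include Gdf6, which was below background in both groups (mean -7.04 in LG epithelium and -4.92 in adult LG). Without adult HG replicate 1 the HG counts were 5 and 23, and 1 and 25. For adult LG against LG epithelium the split was 2 and 22 with scaling to the median and 12 and 16 with normexp, and against LG mesenchyme it was 7 and 25 with normexp. Of 15 mesenchymal markers, 14 were called lower and 1 higher in adult LG than in LG mesenchyme (median difference -4.91). In adult HG 13 were called lower and 1 higher than in HG mesenchyme (median -3.56). Of 14 endothelial markers, 12 were called lower and 1 higher in adult LG, and 11 lower and none higher in adult HG, than in mesenchyme. Their part in the members' differences was not tested.

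Bmp7, with the arrays given above, fell by 4.25 ± 0.20 in adult LG relative to LG epithelium and fell by 6.11 ± 0.18 in adult HG relative to HG epithelium (SE, limma adjusted p = 2.14e-12 and 2.56e-15). It fell by 1.75 and 1.79 relative to the gland mesenchymes. Gdf5 parted the glands. It rose by 2.17 ± 0.23 in adult LG relative to LG epithelium and by 1.87 ± 0.23 relative to LG mesenchyme, and it fell by 4.69 ± 0.21 in adult HG relative to HG epithelium and fell by 5.36 ± 0.21 relative to HG mesenchyme (adjusted p = 1.41e-07, 8.44e-07, 5.33e-13 and 9.82e-14). Bmp4 rose in adult HG relative to HG epithelium (1.12 ± 0.33); in adult LG the rise of 1.36 over LG epithelium was lost without adult LG replicate 1 (0.89). Bmp5 was at least 1.93-fold lower in adult LG than in LG epithelium and at least 1.89-fold lower in adult HG than in HG epithelium. Bmp3 fell by 4.09 in adult LG relative to LG mesenchyme and fell by 6.62 in adult HG relative to HG mesenchyme. Gdf10 fell by 6.04 and 3.78 and Bmper, relative to the same layers, was at least 136-fold lower in adult LG and fell by 4.08 in adult HG.

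Inhba fell by 3.60 ± 0.47 in adult HG relative to HG epithelium and fell by 5.29 ± 0.47 relative to HG mesenchyme, and was at least 5.43-fold lower in adult LG than in LG mesenchyme. Without adult HG replicate 1 the HG differences were -4.31 and -6.00. Inhbb fell by 2.56 in adult LG and 2.06 in adult HG relative to epithelium. Tgfb1 fell by 3.82 and 1.31 in the same comparisons and Tgfb2 by 1.54 and 2.02. Tgfbr2 rose by 1.08 and 1.39 and Tgfbi by 1.26 and 1.59, the Tgfbi call in LG being lost without adult LG replicate 1 (1.05), and both fell relative to mesenchyme in each gland. Bmpr1b was not well above background in either adult gland and at least 10.5-fold lower in adult LG and 7.97-fold lower in adult HG than in the mesenchyme. Chrdl1 fell by 2.78 ± 0.22 in adult HG relative to HG epithelium (adjusted p = 2.37e-09). Grem1 was at least 5.14-fold lower in adult LG and 21.8-fold lower in adult HG than in mesenchyme.

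Among the targets, Id3 stood at -0.76 and -0.72 in adult LG and at 1.58, 0.28 and -0.38 in adult HG. Every adult array was below every embryonic array of the same gland. It fell by 1.63 ± 0.34 relative to LG epithelium and fell by 5.37 ± 0.34 relative to LG mesenchyme, and in HG it fell by 3.06 ± 0.30 and fell by 4.55 ± 0.30 relative to the same layers (SE, limma adjusted p = 0.000303, 8.10e-11, 3.99e-08 and 1.55e-10). Id1 differed by -1.83 and -5.59 from LG epithelium and mesenchyme in adult LG and by -1.99 and -3.54 from HG epithelium and mesenchyme in adult HG, all called; without adult HG replicate 1 the last 2 were -2.59 and -4.15. Id4 fell by 2.30 in adult LG and 3.65 in adult HG relative to epithelium. Id2 fell in adult LG relative to LG epithelium (1.96 ± 0.34) but in adult HG it rose relative to HG mesenchyme (1.03 ± 0.31) and differed by 0.65 from HG epithelium (adjusted p = 0.0684); the rise over HG mesenchyme was not called without adult HG replicate 3 (0.66). Smad6 was at least 6.96-fold lower in adult LG than in LG epithelium and fell by 2.70 in adult HG relative to HG epithelium, or by 3.38 without adult HG replicate 1, and Smad7 fell by 2.44 in adult HG and by 1.39 in adult LG, the LG call being lost without adult LG replicate 1 (-0.76). Msx2 rose by 1.14 in adult LG relative to LG epithelium. Msx1 was called higher there too, a call lost under 13 of 36 other settings. Scaled to the median, adult LG relative to LG epithelium lost the calls for Msx1 (0.73), Msx2 (0.67), Bmp4 (0.89), Tgfbi (0.79) and Tgfbr2 (0.61). Adult HG relative to HG epithelium lost that for Bmp4 (0.95).

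Relative to the 2 LG layers, 12 of 26 and 24 of 28 adult LG calls held under all other settings, and in HG 19 of 26 and 22 of 25. In adult LG, Bmp6 and Inhba relative to LG epithelium were called with bounds of 1-fold or less, so that no fold is given. Immune markers were called higher than in epithelium for 11 of 11 genes in adult LG and 10 of 11 in adult HG. Compared with mesenchyme, 4 were called higher and 1 lower in adult LG, and 2 higher and 1 lower in adult HG. The part of immune RNA in the members' differences was not tested. Without adult HG replicate 1, Bmp2 was called lower than in HG epithelium (-1.18) and HG mesenchyme (-1.36), against -0.50 and -0.68, not called, with it, and Bmpr2 was called lower than in HG epithelium (-0.46, against -0.35). Bmp6 rose by 1.10 in adult HG relative to HG epithelium with that array and by 0.73 without it, and fell relative to HG mesenchyme by 1.08, or 0.58 without adult HG replicate 3. Of 56 other pathway genes 10 rose and 27 fell in adult LG relative to epithelium and 14 rose and 25 fell in adult HG; relative to mesenchyme the counts were 11 and 30 in LG and 7 and 32 in HG. Tgif2, a co-repressor of Smads, fell by 4.56 in adult LG and fell by 6.08 in adult HG relative to epithelium.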

How the data were processed

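Cy3-labelled cRNA made from 0.5 ug of Trizol-extracted total RNA was hybridised to 1-colour Agilent arrays, per the labels' protocols. The deposited intensity values are the background-subtracted, detrended processed signals of Agilent Feature Extraction, version 11.5.1.1 per the submitters' processing notes and 11.0.1.1 on slide 1 per the file headers; the authors' deposited table repeats these intensities (median log2 ratio 0, largest SD over an array 0.0425). Probes were named through their RefSeq accession (27509 of 55681 probes, the 28172 unnamed ones not being used here). Flagged outlier spots were left out and no spot was saturated. Each array's log2 75th percentile was subtracted. Probes well above background in at least a 0.5 share of spots on every array of 1 group were kept, and the probe of highest mean stood for a gene.

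All 23 arrays in 8 groups were fitted at once with limma 3.58.1 (R 4.3.3; data.table version 1.17.8; figures by matplotlib 3.10.9), two-sided, with Benjamini-Hochberg adjustment over 16324 genes and a threshold of 0.05. The same fit was also run on simulated data whose arrays varied independently. That run lacked the shared deviations of same-numbered arrays described below, so it cannot test how they affect the p-values. The precision rests on 2 or 3 arrays a group, whose lowest correlation within a group was 0.985 to 0.990 for embryonic groups, 0.971 for adult LG and 0.959 for adult HG; 42.4% to 64.6% of spots were well above background. Replicate number equals slide in all groups but adult LG, whose replicates 1 and 2 lay on slides 2 and 3. Same-numbered arrays deviated together in the 9 embryonic comparisons (r 0.171 to 0.578 for each pair), so their arrays are paired by slide. The same holds for adult HG against HG mesenchyme (r 0.120 to 0.440) but not for the other adult comparisons. The main fit did not use this pairing. Its SE and adjusted p rest on group means alone, and only values given with a block take the pairing into account.

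Alternatives were normexp (offset 50, on median spot signals because mean signals are not among the columns used here), quantile and median scaling, other filters and probe summaries, the authors' table, only the groups compared, replicate and slide blocks, and arrays left out (a lone adult LG array then took its spread from the other groups). The members, the 64 other pathway genes (56 measured) and the marker lists (epithelial, mesenchymal, endothelial, immune, skeletal muscle, cartilage and bone, pigment and Schwann cells) were chosen with earlier results of these data known. In each comparison at most the 8 highest and 8 lowest called members have full statistics, and at most 3 other pathway genes are named in each direction. One result among the other pathway genes is not reported here.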

Additional observations from a re-analysis of the deposited data

Results flagged for a closer look

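The gap between the layers was not the same in LG, HG and eyelid for 18 members by the limma F test, which called 42.3% of all genes. The adjusted p was 7.86e-09 for Bmpr1b, 3.22e-08 for Bmp7, 4.80e-08 for Chrdl1, 9.91e-07 for Inhbb, 3.27e-06 for Bmp5 and 3.50e-06 for Tgfb1. It was 3.67e-06 for Id3, 1.07e-05 for Bmp2, 1.40e-05 for Id1, 3.53e-05 for Id4 and 4.33e-05 for Id2. It was 0.000274 for Tgfbi, 0.000453 for Bmp3, 0.00181 for Msx2, 0.00474 for Bmp6, 0.00516 for Bmpr2, 0.0149 for Bmp4 and 0.0202 for Gdf6. Among these, Bmpr1b, Bmpr2, Bmp2, Inhbb, Tgfb1 and Id2 were called in opposite directions in a gland and in the eyelid, and Chrdl1 in HG and in LG.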

How the results depend on the processing

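The 332 called differences were recomputed under the other settings (single arrays left out not counted), giving 4304 values, of which 4046 kept their direction and call, 249 kept their direction without the call and 9 changed sign; for none was the cause tested. Under normexp the signs of Bmp6 (0.87), Bmpr1b (0.27) and Inhba (0.42) in adult LG relative to LG epithelium, of Chrdl1 (0.57) relative to LG mesenchyme, and of Bmp6 (0.089), Chrdl1 (0.19) and Smad6 (0.19) in adult LG relative to adult HG changed, all at levels below background in adult LG. Bmp6 relative to LG epithelium and Chrdl1 relative to LG mesenchyme were then called in the opposite direction (limma adjusted p = 4.78e-05 and 0.00685). In adult LG relative to adult HG, Bmp5 changed sign under quantile normalization (-0.11) and Smad6 ran from -2.90 to 0.005 as one replicate number was left out. Scaling to the median left 9 members called between HG and eyelid mesenchyme. Fitting only the groups compared gave 19 calls between LG and HG mesenchyme and 12 between adult LG and adult HG. Leaving out one replicate number in every group gave 7 to 13 calls between LG and HG epithelium, 11 to 19 between LG and eyelid mesenchyme and 10 to 14 between HG and eyelid mesenchyme. Leaving out 1 array gave 12 to 15, 16 to 21 and 11 to 21.

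Scaling to the median moved the median difference of all genes to -0.57 in adult LG relative to LG epithelium, -0.44 relative to LG mesenchyme and -0.38 relative to adult HG, and to 0.33 in LG epithelium and 0.29 in HG epithelium relative to eyelid epithelium. The replicate block gave 27, 24 and 25 layer calls in LG, HG and eyelid, 15 between the gland epithelia, and 24 each for LG and HG against eyelid epithelium. It gave 12, 18 and 20 among the mesenchymes and 25 for adult HG against HG mesenchyme; calls it added where the numbers pair the arrays stand beside the results. For the tissue dependence of the layer difference it added Msx1 (adjusted p = 0.0346, limma). For the adult comparisons where the numbers do not pair the arrays it gave 22, 28, 29 and 27 calls. Dim signal limits adult LG most, where several members have only a bound.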
